A study of Mus musculus with 31 samples.

Results

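Melanomas of a line edited in the glucocorticoid receptor gene were compared with melanomas of its parental line, all in mice treated with the glucocorticoid (GC) clobetasol. The compared libraries were chosen by their labels alone, as the 5 GC-treated tumors of the glucocorticoid receptor knockout (GRKO) line and the 5 GC-treated tumors of the parental line, 10 of the 31 libraries of the series. The series holds bulk RNA sequencing of 20 tumors, in 4 groups of 5 mice, and of 11 cultures of the same lines. The authors deposited read counts per gene from the 3′ ends of messenger RNA. The comparison asks how much of the tumor's expression under a GC differs when the tumor cells carry the edit.

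The parental line came from a mouse melanoma driven by mutant Nras and was grown intradermally in wild-type C57BL/6 mice, and GRKO cells are its derivative after CRISPR-Cas9 editing of *Nr3c1*. The GRKO cells were grown out from a single-cell colony, so that the edit and the other properties of a clone cannot be told apart. The hosts were wild type, so the blood vessels, immune cells and other host cells of both groups kept their own receptor. GC-treated mice received clobetasol propionate as a 0.05% ointment 3 times a week, and the control tumors, 5 of each genotype, came from mice given a cream without it. In culture, cells of both lines received clobetasol propionate (2 parental and 3 GRKO cultures) or DMSO (3 each), and the labels of the cultures name different doses in different places. The ages and sex of the mice were not used here.

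The glucocorticoid receptor (GR), encoded by *Nr3c1*, is a hormone-activated transcription factor that waits in the cytoplasm bound to chaperones and enters the nucleus once a GC binds. There it switches on genes such as *Tsc22d3*, *Per1* and the metallothioneins, and it holds down many inflammatory genes. GCs act on nearly every cell type of the skin, and tumor cells, immune cells and vessels all express the receptor.

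The parental GC tumors 1 to 5 had 17645745, 20917002, 20602855, 21660514 and 16028972 reads counted on genes, and the GRKO GC tumors 1 to 5 had 20421176, 18591521, 19736725, 19376173 and 20183175. Levels are given as CPM after scaling with edgeR's TMM factors, and errors as the SD over the 5 tumors of a group. Libraries 2 and 4 of both genotypes stood apart. Their TMM factors were 0.914 and 0.938 in parental and 0.998 and 0.975 in GRKO tumors, against 1.09 to 1.11 and 1.09 to 1.13 in the others of the same group. At an equal depth of 15528066 reads, 15794 and 15799 genes were expected in parental libraries 2 and 4, against 16668 to 16916 in the other 3. The GRKO libraries 2 and 4 had 15561 and 15155 genes, against 16451 to 16655. The counts of called genes are therefore also given without these 4 libraries. Mitochondrial reads were 1.87 ± 0.393% of the parental and 1.72 ± 0.225% of the GRKO libraries (SD, n = 5 each). The gene *Gm26924* held 2.78% of reads in parental library 2 and 2.89% and 6.65% in GRKO libraries 2 and 4. In parental library 4 the most abundant gene was *Actb* at 2.30%. In libraries 1, 3 and 5 of both genotypes no gene held more than 1.60%.

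The melanocyte markers *Tyr* and *Tyrp1*, both pigment enzymes, had 3 or fewer counts in all 10 GC tumors. Of the 13 melanocyte genes listed, 9 passed the filter on low values, and *Mitf*, the transcription factor of the lineage, was the most abundant at 37.7 CPM over the 10 tumors. The summed level of the list was 95.9 ± 24.8 CPM in parental and 61.7 ± 10.1 CPM in GRKO tumors (SD, n = 5 each), with overlapping groups. In the cultures, which hold no host cells, the same genes summed to 11.6 and 11.1 CPM in parental and 4.06 and 5.40 CPM in GRKO cells with DMSO and clobetasol (group means).

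*Nr3c1* (ENSMUSG00000024431), the edited gene, had 53.4, 24.4, 48.2, 37.3 and 49.8 CPM in parental GC tumors 1 to 5 and 47.9, 21.7, 58.0, 32.5 and 49.4 CPM in GRKO GC tumors 1 to 5. Both groups covered the same range, and the lowest tumor of each was number 2. The log2 fold change, GRKO over parental as everywhere here, was -0.02 (SE 0.24, adjusted p = 0.981 from edgeR), and an exact two-sided permutation test gave p = 0.841. These counts come from the 3′ end of the transcript and say nothing of the edited stretch or of the protein. Of the 14 genes of the receptor and its chaperones and cofactors that were tested, edgeR called 0, with a median log2 fold change of -0.20. At an unadjusted p under 0.05, 2 of them were lower and 0 higher, and DESeq2 called 0. Of all 15919 genes tested, 1816 were under that threshold in either direction, and the list counts at an unadjusted p are to be read beside this.

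Across the transcriptome edgeR called few genes between the genotypes under the drug, while 1816 of 15919 had an unadjusted p under 0.05. A gene was called when edgeR's quasi-likelihood test gave an adjusted p under 0.05 (Benjamini-Hochberg over all 15919 genes tested) and the fold change was at least 1.5. By this rule 101 genes differed (0.634% of those tested), 31 higher (0.195%) and 70 lower (0.44%) in GRKO tumors. The median log2 fold change of all genes was 0.01, with 8086 above 0 and 7828 below. Every GRKO tumor lay above every parental tumor for 26 of the 31, and below every one for 66 of the 70. Among all genes tested, 612 had groups that did not overlap (3.84%), 244 higher and 368 lower. In bulk tissue, fewer cells of a type and less RNA per cell cannot be told apart. The study's methods name no strand option for the read counting, which by default takes reads of both strands. Exons of *Ccdc3*, *Cebpd*, *Cp*, *Deptor*, *Dio2*, *Mt2*, *Tnnc2*, *Ccdc68*, *Gfra1*, *Gadd45a*, *H2afx*, *BC100530* and *Oasl1* overlap a gene on the other strand, and those of *Ramp2* and *Ctla2a* one on the same strand, and the part of its reads in their values was not tested.

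These counts moved with the libraries and the test. Without libraries 2 and 4 of both genotypes, 7 genes were higher and 11 lower, 17 of them among the 101. DESeq2 called 121 higher and 168 lower, all 101 among them, and adding each library's number of genes expected at equal depth as a covariate gave 168 and 194. With the tumor number as a block, 70 were higher and 90 lower. The covariate and the fit without 4 libraries were picked once the values were known. Leaving out parental tumor 2, 4 or 5 left 13, 16 or 17 genes higher, and leaving out GRKO tumor 1, 3 or 5 left 16, 12 or 11. The lower genes came to 34 or 38 without parental tumor 2 or 4 and to 36, 34 or 29 without GRKO tumor 1, 3 or 5. Of the 47 called genes chosen for description, 18 kept their call whichever of the 10 tumors was left out, and 35 lost it without libraries 2 and 4. The 12 that kept it there were *Ccdc3*, *Scara5*, *Rgs2*, *Dio2*, *Mt1*, *Mt2*, *Cebpd*, *Adamts1*, *Gfra1*, *Pmaip1*, *Gadd45a* and *Klf10*.

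Some genes that GCs switch on were lower in GRKO tumors, and others did not pass. Of 21 tested genes from the textbook list of GC-responsive genes, 7 were called lower, 0 higher by edgeR, and 18 lay below 0, with a median log2 fold change of -0.72 beside 0.01 for all genes. With no adjustment, 12 were lower and 0 higher at p under 0.05, and DESeq2 called 8 lower and 0 higher. The 24 genes that the study chose as GC-stimulated all lay below 0, with 10 called lower, 0 called higher and a median of -1.07. In that list 17 were lower and 0 higher at an unadjusted p under 0.05, and DESeq2 called 13 lower and 0 higher. That list was chosen by the study on these samples and is not independent evidence of its direction. All called genes of the textbook list except *Hif3a* are also on it, so those calls are not separate evidence.

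*Ccdc3* (ENSMUSG00000026676, chr2:5137776-5230878, plus strand), which encodes a secreted coiled-coil protein, had 144, 336, 117, 256 and 169.6 CPM in parental GC tumors 1 to 5 and 7.05, 10.7, 7.10, 5.56 and 2.63 CPM in GRKO GC tumors 1 to 5. The lowest parental tumor stood more than 10 times above the highest GRKO tumor. Its log2 fold change was -4.95 (SE 0.42, adjusted p = 3.64e-07), the smallest adjusted p of the named genes. *Scara5*, a scavenger receptor that takes up ferritin, was at 18.5 ± 5.74 CPM in parental and 2.31 ± 0.871 CPM in GRKO tumors (SD, n = 5 each; log2 fold change -2.997, SE 0.40, adjusted p = 0.000480). *Cp*, the copper-carrying ferroxidase ceruloplasmin, was at 77.5 ± 14.89 CPM in parental and 22.8 ± 5.49 CPM in GRKO tumors (log2 fold change -1.77, SE 0.28, adjusted p = 0.00275).

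*Rgs2*, a regulator of G-protein signaling, had 771, 274, 1079.7, 475 and 741 CPM in parental GC tumors 1 to 5 and 211, 150.1, 137, 87.3 and 144 CPM in GRKO GC tumors 1 to 5. The groups did not overlap, although parental tumor 2 stood near the top of the GRKO range. Its log2 fold change was -2.20 (SE 0.33, adjusted p = 0.00153). *Cebpd*, a transcription factor of acute-phase and fat-cell programs, had 262, 115, 342, 198 and 235 CPM in parental GC tumors 1 to 5 and 56.5, 57.1, 57.1, 93.5 and 99.4 CPM in GRKO GC tumors 1 to 5. Here too parental tumor 2 was the lowest of its group, and all 5 GRKO tumors were below it (log2 fold change -1.66, SE 0.28, adjusted p = 0.00479). *Adamts1*, a secreted metalloprotease, was at 201 ± 56.3 CPM in parental and 77.6 ± 10.2 CPM in GRKO tumors (log2 fold change -1.37, SE 0.19, adjusted p = 0.000482), and *Deptor*, an inhibitor of mTOR, at 146 ± 45.4 CPM in parental and 69.1 ± 12.8 CPM in GRKO tumors (log2 fold change -1.08, SE 0.20, adjusted p = 0.00985). The groups of both genes did not overlap.

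The metallothioneins are small proteins that bind zinc and copper. *Mt1* (ENSMUSG00000031765, chr8:94179082-94180327, plus strand) had 1802, 2883, 2100.4, 3315 and 2370.3 CPM in parental GC tumors 1 to 5 and 1003, 1397, 603, 1147 and 753 CPM in GRKO GC tumors 1 to 5. Its neighbor *Mt2* (ENSMUSG00000031762, chr8:94172664-94173568, plus strand) had 1004, 836, 1201, 1112 and 1059 CPM in parental GC tumors 1 to 5 and 520.4, 619, 494, 405 and 497 CPM in GRKO GC tumors 1 to 5. In both genes every parental tumor stood above every GRKO tumor, with log2 fold changes of -1.35 (SE 0.23, adjusted p = 0.00479) and -1.04 (SE 0.17, adjusted p = 0.00339). How the counting divided reads between these similar genes was not examined. Of the 7 tested genes of metallothioneins and zinc handling, these 2 were called lower and 0 were called higher by edgeR, with a median of -0.10. Of the others 0 were higher at an unadjusted p under 0.05 or with DESeq2.

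*Per1*, a repressor of the circadian clock, had 85.0, 61.5, 112, 69.8 and 109 CPM in parental GC tumors 1 to 5 and 31.0, 32.6, 34.2, 45.9 and 41.6 CPM in GRKO GC tumors 1 to 5. Every GRKO tumor was below every parental one, and GRKO tumors 4 and 5 were the highest of their group (log2 fold change -1.24, SE 0.26, adjusted p = 0.0242). *Per1* lost its call without parental tumor 3 or 5 or GRKO tumor 1, 2, 3 or 5 (highest adjusted p 0.0845). Of 17 clock genes tested, *Per1* was the 1 called, and the median was -0.16, with 6 above 0 and 11 below. *Hif3a*, a member of the hypoxia-inducible factor family, was at 10.8 ± 4.05 CPM in parental and 0.584 ± 0.614 CPM in GRKO tumors (log2 fold change -4.19, SE 0.90, adjusted p = 0.0300). *Hif3a* lost its call without parental tumor 2, 4 or 5 or GRKO tumor 3, 4 or 5 (highest adjusted p 0.106).

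Other GC-responsive genes did not pass. *Sgk1*, a kinase that controls ion transport, was at 249 ± 43.2 CPM in parental and 138 ± 35.1 CPM in GRKO tumors and *Ctla2a*, a protease inhibitor, at 119 ± 24.3 CPM in parental and 73.4 ± 11.3 CPM in GRKO tumors (SD, n = 5 each). For both the groups did not overlap and the adjusted p was 0.0592, with log2 fold changes of -0.86 and -0.70. DESeq2, a filter of at least 10 counts in every GC tumor and the depth covariate each called both, and edgeR called *Ctla2a* without parental tumor 1 or GRKO tumor 4. *Errfi1*, a feedback inhibitor of the epidermal growth factor receptor, had separate groups at 90.4 ± 7.74 CPM in parental and 59.5 ± 6.08 CPM in GRKO tumors but an adjusted p of 0.294. *Tsc22d3*, which encodes the GC-induced leucine zipper, was at 363 ± 113 CPM against 225 ± 35.7 CPM with overlapping groups (log2 fold change -0.69, SE 0.24, adjusted p = 0.239). *Fkbp5*, a chaperone of the receptor, was at 144 ± 74.8 CPM against 103 ± 32.8 CPM (log2 fold change -0.48, SE 0.34, adjusted p = 0.610).

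**Figure D1:**
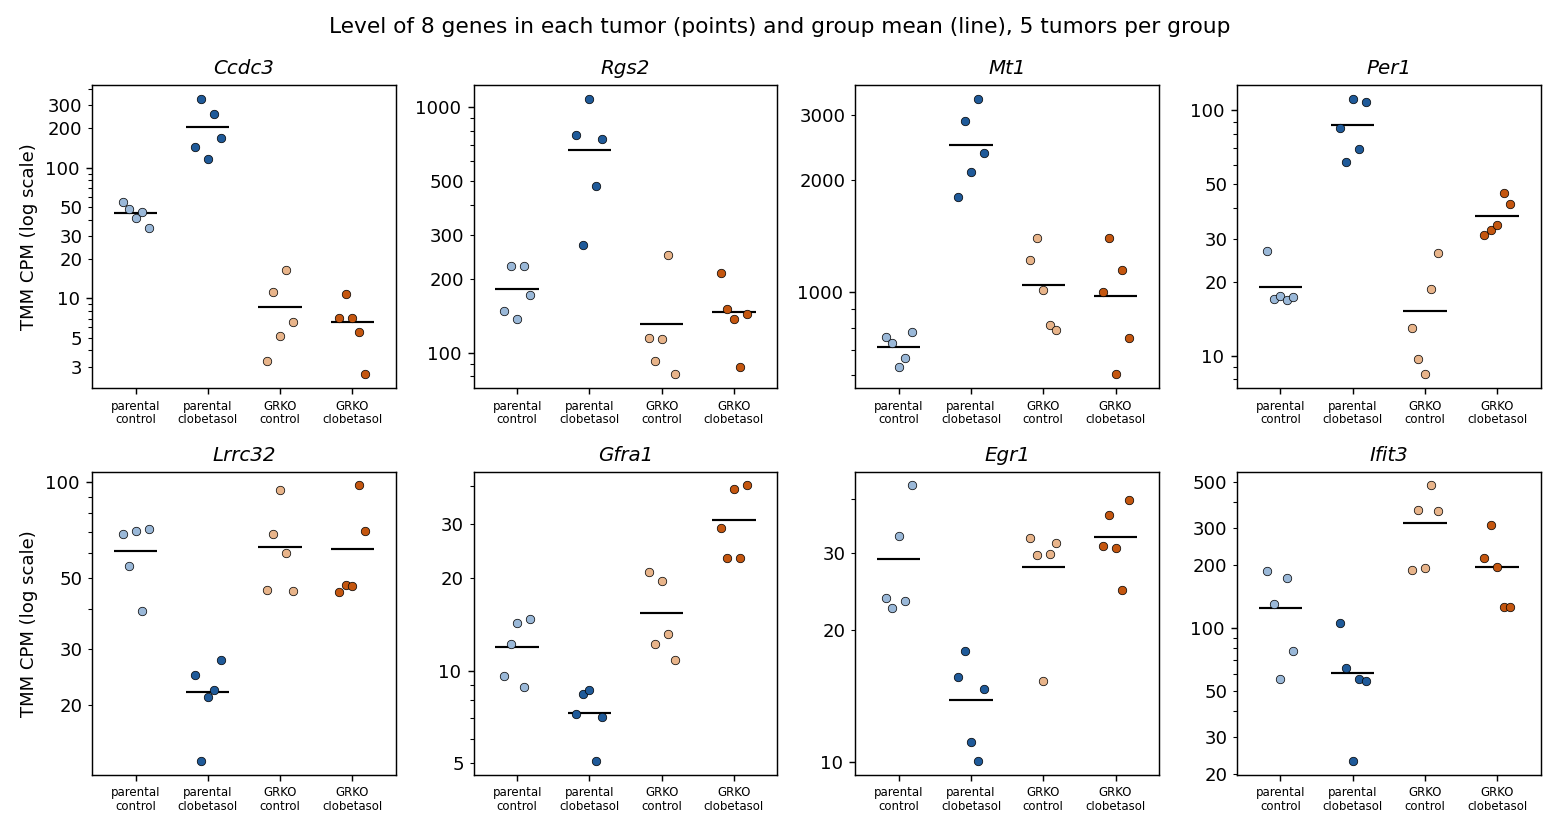
Level of 8 genes in each tumor (points, TMM-scaled CPM on a log axis) in the 4 tumor groups of 5, with a line at the group mean. Under clobetasol, the 5 GRKO tumors lie below the 5 parental tumors for *Ccdc3*, *Rgs2*, *Mt1* and *Per1* and above them for *Lrrc32*, *Gfra1*, *Egr1* and *Ifit3*.

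Promoters of 3 of these genes are shown because the genes were lower together and respond to metals or GCs. They run from 250 bases before to 50 after the start, 5′ to 3′ on the gene's strand, from RefSeq on GRCm38.p6, and the motifs were chosen after the values were seen. Capitals in the first pair mark the core of the metal response element on either strand (TGCACNC and, as its other form, TGCGCNC), which 34.8% of all 11594 promoters matched hold and which *Mt1* holds 3 and *Mt2* 4 times. Among the 7 genes of the metallothionein list, 6 promoters were matched and 4 hold it. Capitals in *Cp* mark the half-site of the GR (AGAACA, or read from the other strand TGTTCT), which 12.8% of all promoters hold. A match describes the letters and shows no binding.
Mt1, chr8:94178839-94179138, plus strand: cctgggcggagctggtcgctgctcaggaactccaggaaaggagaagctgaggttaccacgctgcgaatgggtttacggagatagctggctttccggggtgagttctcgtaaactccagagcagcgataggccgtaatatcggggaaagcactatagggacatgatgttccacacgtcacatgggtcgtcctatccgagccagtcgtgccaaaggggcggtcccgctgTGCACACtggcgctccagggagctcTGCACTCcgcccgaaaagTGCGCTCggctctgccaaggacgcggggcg
Mt2, chr8:94172368-94172667, plus strand: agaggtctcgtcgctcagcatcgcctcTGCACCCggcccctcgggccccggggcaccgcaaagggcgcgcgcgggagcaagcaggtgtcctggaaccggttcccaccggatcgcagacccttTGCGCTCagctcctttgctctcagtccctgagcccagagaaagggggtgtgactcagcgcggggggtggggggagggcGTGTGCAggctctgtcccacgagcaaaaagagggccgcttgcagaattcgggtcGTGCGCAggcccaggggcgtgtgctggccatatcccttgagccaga
Cp, chr3:19956804-19957103, plus strand: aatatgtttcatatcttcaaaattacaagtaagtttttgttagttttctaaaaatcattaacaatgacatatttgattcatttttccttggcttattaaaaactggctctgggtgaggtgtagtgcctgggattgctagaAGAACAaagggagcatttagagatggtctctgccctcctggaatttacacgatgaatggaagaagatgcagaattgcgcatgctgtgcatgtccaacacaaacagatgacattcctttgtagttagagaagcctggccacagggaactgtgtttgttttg

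The half-site was in 4 of the 17 promoters matched from the study's GC-stimulated list (23.5%), in 1 of 18 from the textbook list (5.56%), in 6 of 51 from the lower genes (11.8%) and in 1 of 18 from the higher genes (5.56%). The full inverted repeat of 2 half-sites was in 0 promoters of each set and of all genes. Since promoters were matched for 51 of 70 lower genes, 18 of 31 higher genes and 17 of 24 genes of the study's list, under 80% of each, the comparison of these 3 sets with all genes is void.

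Large differences also lay outside the GC lists. *Dio2*, the deiodinase that activates thyroid hormone, had 346, 253, 299, 146 and 238 CPM in parental GC tumors 1 to 5 and 49.1, 78.9, 57.6, 58.6 and 65.4 CPM in GRKO GC tumors 1 to 5. All 5 GRKO tumors were below all 5 parental tumors (log2 fold change -2.05, SE 0.26, adjusted p = 0.000274). *Agt*, the precursor of angiotensin, was at 23.5 ± 10.8 CPM in parental and 3.09 ± 1.35 CPM in GRKO tumors (log2 fold change -2.93, SE 0.54, adjusted p = 0.00929). *Pld5*, of the phospholipase D family, was at 4.86 ± 1.41 CPM in parental and 0.0908 ± 0.203 CPM in GRKO tumors (log2 fold change -5.61, SE 1.03, adjusted p = 0.0119), with 0 counts in 4 of the GRKO tumors and 10 in the other. These 3 calls held with any 1 tumor left out.

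Several further genes with large differences lost their call when some tumors were left out, while their log2 fold changes kept their direction. With each tumor left out these were -7.03 to -4.99 for *Ccdc68*, -5.32 to -4.50 for *Sall3*, -2.86 to -2.40 for *Pcdh9* and -2.63 to -2.14 for *Scd3*. *Ccdc68*, a coiled-coil protein gene, was at 2.40 ± 1.36 CPM in parental and 0.0539 ± 0.0975 CPM in GRKO tumors (log2 fold change -5.28, SE 1.15, adjusted p = 0.0256). *Ccdc68* lost its call without parental tumor 1, 2, 4 or 5 or GRKO tumor 1, 2, 4 or 5 (highest adjusted p 0.0887). *Sall3*, a zinc-finger transcription factor, was at 3.67 ± 1.91 CPM in parental and 0.125 ± 0.135 CPM in GRKO tumors (log2 fold change -4.84, SE 1.00, adjusted p = 0.0201). *Sall3* lost its call without parental tumor 3 or GRKO tumor 1, 3 or 5 (highest adjusted p 0.0670). *Pcdh9*, a protocadherin of cell adhesion, was at 50.3 ± 23.4 CPM in parental and 7.83 ± 1.83 CPM in GRKO tumors (log2 fold change -2.68, SE 0.59, adjusted p = 0.0272). *Pcdh9* lost its call without parental tumor 2 or 4 or GRKO tumor 1, 2, 3, 4 or 5 (highest adjusted p 0.0999). *Scd3*, a stearoyl-CoA desaturase, was at 9.70 ± 2.51 CPM in parental and 1.94 ± 0.984 CPM in GRKO tumors (log2 fold change -2.31, SE 0.48, adjusted p = 0.0209). *Scd3* lost its call without parental tumor 2 or 5 or GRKO tumor 3, 4 or 5 (highest adjusted p 0.0785).

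*Col11a1*, a chain of a fibrillar collagen, was at 12.9 ± 5.36 CPM in parental and 1.31 ± 0.959 CPM in GRKO tumors (log2 fold change -3.30, SE 0.78, adjusted p = 0.0483). *Col11a1* lost its call when any 1 of the 10 tumors was left out (highest adjusted p 0.135) and with library size as the scaling. Of 18 collagen genes tested it was the 1 called by edgeR, 2 were lower at an unadjusted p under 0.05 and with DESeq2, and the median of the list was -0.04. *Ramp2*, a partner of adrenomedullin receptors, was at 20.5 ± 4.51 CPM in parental and 5.20 ± 1.18 CPM in GRKO tumors (log2 fold change -1.98, SE 0.46, adjusted p = 0.0388). *Ramp2* lost its call when any 1 of the 10 tumors was left out (highest adjusted p 0.122) and with library size as the scaling or with the tumor number as a block. *Nacad* and *Atp8b5*, the second a lipid flippase gene, had log2 fold changes of -2.11 (SE 0.48, adjusted p = 0.0360) and -2.05 (SE 0.43, adjusted p = 0.0225). *Nacad* lost its call without parental tumor 2, 3 or 4 or GRKO tumor 1, 3 or 5 (highest adjusted p 0.118). *Atp8b5* lost its call without parental tumor 2 or 4 or GRKO tumor 1, 3 or 5 (highest adjusted p 0.0872).

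*Lrrc32* was higher in GRKO than in parental tumors under the drug. The gene (ENSMUSG00000090958, chr7:98489283-98502181, plus strand) encodes GARP, which docks latent TGF-β at the cell surface. It had 24.9, 13.3, 21.2, 22.2 and 27.8 CPM in parental GC tumors 1 to 5 and 45.2, 47.5, 47.4, 97.7 and 70.2 CPM in GRKO GC tumors 1 to 5. The lowest GRKO tumor stood above the highest parental one, and GRKO tumors 4 and 5 were the highest of all 10. The log2 fold change was 1.49 (SE 0.26, adjusted p = 0.00517), and the exact two-sided permutation p of 0.00794 is the smallest that 5 against 5 allow. With each tumor left out the log2 fold change ranged from 1.26 to 1.59 and the call held. Without libraries 2 and 4 of both genotypes it was 1.14 and did not pass (adjusted p = 0.193), the lowest value of the 11 other settings.

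Of 17 tested genes of TGF-β ligands and the latent complex, *Lrrc32* was the 1 called, 4 were higher and 2 lower at an unadjusted p under 0.05, and DESeq2 called 3 higher. The median was 0.00, with 8 above 0 and 9 below. The integrin genes *Itgb3*, at 32.7 ± 5.47 CPM against 58.9 ± 18.01 CPM, and *Itgb5*, at 151 ± 32.8 CPM against 238 ± 25.8 CPM, had separate groups but did not pass (adjusted p = 0.122 and 0.124). *Itgb8*, whose integrin activates latent TGF-β, was at 7.95 ± 3.75 CPM against 3.41 ± 0.924 CPM, also separate and not called (adjusted p = 0.375). *Tgfb1* was at 33.6 ± 13.4 CPM against 43.5 ± 26.4 CPM, with overlapping groups. Of the 8 TGF-β receptor and Smad genes edgeR called 0, as did DESeq2. Their median was 0.21, and 1 was higher at an unadjusted p under 0.05.

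Among 20 targets and feedback genes of TGF-β, 1 was called, 16 lay above 0 and the median was 0.47. Of them 8 were higher and 0 lower at an unadjusted p under 0.05, and DESeq2 called 2 higher. *Klf10*, a transcription factor induced by TGF-β, had 9.95, 7.85, 7.82, 8.72 and 9.23 CPM in parental GC tumors 1 to 5 and 17.6, 13.9, 33.9, 13.7 and 35.1 CPM in GRKO GC tumors 1 to 5. The 5 parental tumors lay close together and GRKO tumors 3 and 5 stood highest (log2 fold change 1.39, SE 0.27, adjusted p = 0.0138). *Klf10* lost its call without GRKO tumor 3 or 5 (highest adjusted p 0.0630). *Smad7* and *Skil*, both feedback inhibitors of the pathway, had separate groups without passing, at 4.94 ± 0.727 CPM against 9.60 ± 3.00 CPM and at 60.1 ± 5.48 CPM against 87.7 ± 11.5 CPM (adjusted p = 0.205 and 0.146).

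GARP is also made by vessel cells, whose markers are given beside *Lrrc32*. EdgeR called 0 of 11 endothelial genes, the lowest at -1.12. The summed CPM of 11 endothelial genes was 111, 100.1, 103, 118 and 104 in parental and 147, 165, 136, 198 and 151 in GRKO tumors. All GRKO tumors were above all parental ones, and number 4 was the highest of each group. *Plvap* was the most abundant at 55.1 CPM, none of the 11 was at the floor of 3 counts in all tumors, and 10 of 11 lay above 0 with a median of 0.68. Of the 11, 4 were higher and 0 lower at an unadjusted p under 0.05, and DESeq2 called 1 higher. *Pecam1*, *Kdr*, *Emcn*, *Esam* and *Plvap* had separate groups. In control tumors the sums were also separate, at 192 ± 30.8 CPM in parental and 274 ± 10.7 CPM in GRKO tumors, with a median of 0.74 and 2 genes called higher, while *Lrrc32* there differed by 0.05 on the log2 scale and did not pass (adjusted p = 0.942). The part of these cells in the *Lrrc32* difference was not tested.

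Further genes were higher in GRKO tumors. *Gfra1*, a receptor for the growth factor GDNF, had 7.20, 8.37, 8.66, 5.07 and 7.07 CPM in parental GC tumors 1 to 5 and 29.3, 23.2, 39.2, 23.4 and 40.2 CPM in GRKO GC tumors 1 to 5. Every GRKO tumor was more than 2 times the highest parental tumor (log2 fold change 2.09, SE 0.26, adjusted p = 0.000270). *Pmaip1*, which encodes the pro-apoptotic protein Noxa, had 2.45, 3.93, 2.21, 1.82 and 0.912 CPM in parental GC tumors 1 to 5 and 9.32, 13.0, 10.1, 11.97 and 16.9 CPM in GRKO GC tumors 1 to 5. Again the groups did not overlap (log2 fold change 2.43, SE 0.38, adjusted p = 0.00211). *Ube2ql1*, a ubiquitin-conjugating enzyme gene, was at 6.86 ± 2.88 CPM in parental and 19.9 ± 3.48 CPM in GRKO tumors (log2 fold change 1.53, SE 0.30, adjusted p = 0.0138).

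The largest log2 fold change among the named higher genes was that of *Gm11033*, a long noncoding RNA, at 0.151 ± 0.210 CPM in parental and 7.03 ± 2.20 CPM in GRKO tumors (log2 fold change 5.48, SE 1.12, adjusted p = 0.0195). *Gm11033* lost its call without parental tumor 2, 4 or 5 or GRKO tumor 3 (highest adjusted p 0.0564). *Aplnr*, the apelin receptor of vessels, was at 0.112 ± 0.117 CPM in parental and 1.37 ± 0.627 CPM in GRKO tumors (log2 fold change 3.54, SE 0.82, adjusted p = 0.0420). *Aplnr* lost its call without parental tumor 1, 2, 3 or 4 or GRKO tumor 1, 3, 4 or 5 (highest adjusted p 0.112) and with library size as the scaling or without the filter on low counts or with the 10 GC tumors fitted alone. The stefin A genes *Stfa1* and *BC100530*, inhibitors of cysteine proteases, were at 6.998 ± 4.66 CPM in parental and 49.2 ± 25.6 CPM in GRKO tumors and at 206 ± 57.6 CPM in parental and 592 ± 211 CPM in GRKO tumors (log2 fold changes 2.82 and 1.52, SE 0.57 and 0.31, adjusted p = 0.0176 and 0.0179). *Stfa1* lost its call without parental tumor 2 or 4 or GRKO tumor 3 or 5 (highest adjusted p 0.0593). *BC100530* lost its call without parental tumor 4 or GRKO tumor 3 or 5 (highest adjusted p 0.0680). The neutrophil markers *S100a8*, at 11.5 ± 10.95 CPM against 100.2 ± 55.99 CPM, and *Retnlg*, at 1.66 ± 0.886 CPM against 4.92 ± 1.10 CPM, also had separate groups and did not pass (adjusted p = 0.131 and 0.254). They were the 2 with separate groups of 8 neutrophil genes tested, of which 5 lay above 0 and 3 below. At an unadjusted p under 0.05, 3 of the 8 were higher and 1 lower, and the summed levels of the list overlapped. The part of neutrophils in the stefin A difference was not tested.

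*Gadd45a*, induced by DNA damage and other stress, had 7.76, 9.63, 10.9, 5.71 and 7.18 CPM in parental GC tumors 1 to 5 and 35.6, 13.2, 27.9, 22.8 and 55.9 CPM in GRKO GC tumors 1 to 5. GRKO tumor 5 was the highest and tumor 2 the lowest of its group, above all parental tumors (log2 fold change 1.92, SE 0.37, adjusted p = 0.0120). *Gadd45a* lost its call without GRKO tumor 5 (highest adjusted p 0.0560). *Hes1*, a repressor induced by Notch, was at 24.9 ± 13.9 CPM in parental and 101 ± 61.2 CPM in GRKO tumors (log2 fold change 2.01, SE 0.46, adjusted p = 0.0360). *Hes1* lost its call without parental tumor 2, 4 or 5 or GRKO tumor 1, 3 or 5 (highest adjusted p 0.156) and with library size as the scaling or with the 10 GC tumors fitted alone. *H2afx*, a histone variant of DNA repair, was at 14.8 ± 6.94 CPM in parental and 45.7 ± 23.8 CPM in GRKO tumors (log2 fold change 1.62, SE 0.35, adjusted p = 0.0256). *H2afx* lost its call without parental tumor 2, 4 or 5 or GRKO tumor 1, 3 or 5 (highest adjusted p 0.134) and with library size as the scaling or with the 10 GC tumors fitted alone.

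*Egr1*, an immediate-early transcription factor, had 15.7, 17.95, 11.1, 10.0 and 14.6 CPM in parental GC tumors 1 to 5 and 31.3, 36.8, 30.8, 24.8 and 39.8 CPM in GRKO GC tumors 1 to 5. All GRKO tumors were above all parental tumors (log2 fold change 1.24, SE 0.24, adjusted p = 0.0146). *Egr1* lost its call without parental tumor 4 or GRKO tumor 5 (highest adjusted p 0.0541). It was the 1 called of 22 immediate-early genes, which had a median of 0.32. *Sema7a*, a semaphorin, was at 14.4 ± 4.84 CPM in parental and 41.2 ± 11.6 CPM in GRKO tumors (log2 fold change 1.52, SE 0.30, adjusted p = 0.0152). *Sema7a* lost its call without parental tumor 2 or GRKO tumor 5 (highest adjusted p 0.0589). *Lamb3*, a laminin chain of the basement membrane, was at 8.64 ± 3.62 CPM in parental and 23.02 ± 6.94 CPM in GRKO tumors (log2 fold change 1.41, SE 0.31, adjusted p = 0.0256). *Lamb3* lost its call without parental tumor 1, 2, 4 or 5 or GRKO tumor 3 or 5 (highest adjusted p 0.105).

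Some interferon-stimulated genes were higher in GRKO tumors. Of 26 tested, 5 were called higher, 0 lower by edgeR, and 24 lay above 0, with a median of 1.21 beside 0.01 for all genes. With no adjustment, 17 were higher and 0 lower at p under 0.05, and DESeq2 called 9 higher and 0 lower. *Ifit3*, which restrains viral messenger RNA, had 105, 64.7, 23.2, 56.9 and 55.7 CPM in parental GC tumors 1 to 5 and 216, 310.2, 195, 126 and 126 CPM in GRKO GC tumors 1 to 5. The groups did not overlap, parental tumor 1 was the highest of its group, and GRKO tumors 4 and 5 were the lowest of theirs (log2 fold change 1.67, SE 0.37, adjusted p = 0.0305). *Ifit3* lost its call without parental tumor 2, 3, 4 or 5 or GRKO tumor 1, 2 or 3 (highest adjusted p 0.0902).

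*Isg15*, a ubiquitin-like modifier, had 44.8, 6.39, 11.01, 8.67 and 8.61 CPM in parental GC tumors 1 to 5 and 117, 74.3, 78.9, 20.3 and 116 CPM in GRKO GC tumors 1 to 5. The groups overlapped, because parental tumor 1 was above GRKO tumor 4 (log2 fold change 2.35, SE 0.53, adjusted p = 0.0360, exact permutation p = 0.0159). *Bst2*, which tethers budding virus particles, overlapped as well at 76.9 ± 40.6 CPM in parental and 202 ± 61.2 CPM in GRKO tumors (log2 fold change 1.39, SE 0.29, adjusted p = 0.0201). *Isg15* lost its call without parental tumor 2, 3, 4 or 5 or GRKO tumor 1, 2, 3 or 5 (highest adjusted p 0.115) and with library size as the scaling or with the 10 GC tumors fitted alone. *Bst2* lost its call without parental tumor 2, 4 or 5 or GRKO tumor 1, 2 or 5 (highest adjusted p 0.0712) and with the 10 GC tumors fitted alone.

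The related *Oasl1* and *Oasl2*, of the oligoadenylate synthetase family, were at 7.75 ± 5.33 CPM in parental and 29.1 ± 10.6 CPM in GRKO tumors and at 55.8 ± 24.3 CPM in parental and 138 ± 33.4 CPM in GRKO tumors (log2 fold changes 1.91 and 1.31, SE 0.44 and 0.26, adjusted p = 0.0360 and 0.0152). *Oasl1* lost its call without parental tumor 2 or 5 or GRKO tumor 1, 2, 3 or 5 (highest adjusted p 0.113) and with the 10 GC tumors fitted alone. *Oasl2* lost its call without parental tumor 2 or 5 (highest adjusted p 0.0552). *Pydc3*, an interferon-inducible gene with a pyrin domain, was at 8.09 ± 5.47 CPM in parental and 33.6 ± 14.7 CPM in GRKO tumors (log2 fold change 2.05, SE 0.41, adjusted p = 0.0146). *Pydc3* lost its call without parental tumor 2 (highest adjusted p 0.0526). Each of the 5 called genes of the interferon-stimulated list thus lost its call with some tumor left out, and each lost it without libraries 2 and 4 of both genotypes.

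Promoters of *Isg15*, *Ifit3* and *Bst2*, from the same RefSeq table, are shown because they are the 3 of the 5 called interferon genes that hold the motif searched, while those of *Oasl1* and *Oasl2* hold 0 matches. Capitals mark the core of the interferon-stimulated response element, GAAANNGAAA on either strand, with overlapping matches counted (3 in *Isg15*, 2 in *Ifit3*, 2 in *Bst2*). Of all 11594 promoters matched, 3.25% hold it, and of the 21 matched from the interferon list (80.8% of its 26 genes) 13 do (61.9%).
Isg15, chr4:156200769-156201068, minus strand: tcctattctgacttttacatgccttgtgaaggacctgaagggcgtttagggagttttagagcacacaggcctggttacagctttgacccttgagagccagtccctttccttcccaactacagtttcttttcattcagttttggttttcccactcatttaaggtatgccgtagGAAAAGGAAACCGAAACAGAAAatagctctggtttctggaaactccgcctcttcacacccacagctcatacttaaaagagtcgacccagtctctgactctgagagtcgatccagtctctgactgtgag
Ifit3, chr19:34583279-34583578, plus strand: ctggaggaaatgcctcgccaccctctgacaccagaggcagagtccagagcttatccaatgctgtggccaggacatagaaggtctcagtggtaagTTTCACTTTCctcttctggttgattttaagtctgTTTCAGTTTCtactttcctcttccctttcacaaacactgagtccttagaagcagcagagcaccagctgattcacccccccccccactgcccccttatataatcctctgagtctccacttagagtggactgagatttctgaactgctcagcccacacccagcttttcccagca
Bst2, chr8:71537423-71537722, minus strand: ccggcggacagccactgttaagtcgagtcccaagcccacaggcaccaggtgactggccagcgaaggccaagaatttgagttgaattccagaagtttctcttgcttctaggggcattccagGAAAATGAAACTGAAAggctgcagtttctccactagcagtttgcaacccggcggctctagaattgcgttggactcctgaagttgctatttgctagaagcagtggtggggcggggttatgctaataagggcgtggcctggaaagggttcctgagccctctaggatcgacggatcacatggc

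All 13 class I antigen-presentation genes lay above 0 with a median of 0.52, and edgeR called 0. Of them 4 were higher and 0 lower at an unadjusted p under 0.05, and DESeq2 called 1. *B2m*, the light chain of class I molecules, was at 6203 ± 2354 CPM in parental tumors with a log2 fold change of 0.46 (SE 0.26, adjusted p = 0.504). *Tap2*, a peptide transporter, had separate groups at 0.338 ± 0.305 CPM against 3.09 ± 3.08 CPM (adjusted p = 0.0825). Of 10 class II genes 9 lay below 0 with a median of -0.39, and edgeR and DESeq2 called 0, with 2 lower at an unadjusted p under 0.05.

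Of 24 proliferation genes, 22 lay above 0 with a median of 0.50 and edgeR called 0. At an unadjusted p under 0.05, 12 were higher and 0 lower, and DESeq2 called 1. *Ccna2*, *Mcm6* and *Cdc20*, genes of the cell cycle and of DNA replication, had separate groups, at 15.4 ± 1.62 CPM against 27.2 ± 6.87 CPM, 26.9 ± 5.53 CPM against 46.4 ± 9.26 CPM and 122 ± 13.2 CPM against 172 ± 14.1 CPM, and did not pass (adjusted p = 0.193, 0.156 and 0.243). *Mki67* overlapped, at 67.2 ± 12.4 CPM against 71.3 ± 18.5 CPM. Inflammatory mediators had 15 genes tested, a median of 0.65 and 0 calls by edgeR or DESeq2, with 2 higher at an unadjusted p under 0.05 (1816 of 15919 for all genes, both directions). *Il1b* and *Tnf*, both inflammatory cytokines, were at 5.24 ± 2.96 CPM against 6.25 ± 2.38 CPM and 2.94 ± 0.601 CPM against 2.06 ± 1.15 CPM, with overlapping groups.

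Hypoxia genes (13 tested, median -0.23), checkpoint and exhaustion genes (8 tested, median 0.04) and p53 and heat-shock genes (10 tested, median 0.14) gave 0 calls by edgeR. At an unadjusted p under 0.05, 3 hypoxia genes were lower and 0 higher, 1 checkpoint gene was higher and 1 lower, and 0 p53 or heat-shock genes were either. DESeq2 called 2 hypoxia genes lower and 0 of the others.

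**Figure D2:**
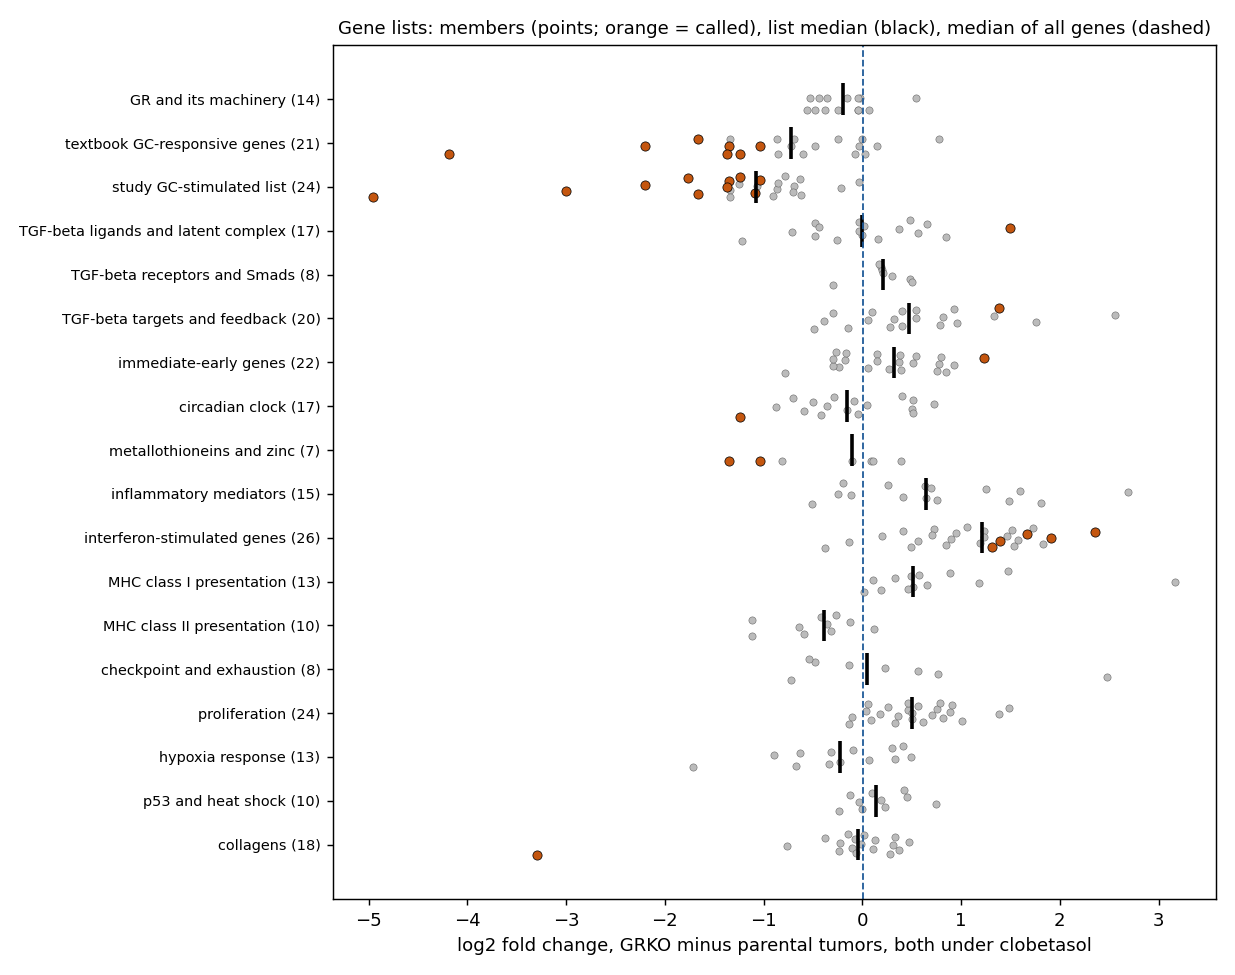
Log2 fold change of GRKO over parental GC tumors (5 against 5) for each tested member of 18 gene lists, with called genes in orange, a black bar at each list's median and a dashed line at the median of all genes, 0.01. The study's GC-stimulated list, which was chosen on these samples, lies lowest as a whole (median -1.07) and the interferon-stimulated genes highest (median 1.21).

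Of the marker lists, those of mast cells, adipocytes, endothelium and pericytes with smooth muscle had summed levels whose groups did not overlap. The 5 mast cell genes summed to 216, 322, 204, 289 and 261 CPM in parental and 92.3, 124, 100.5, 124 and 141 CPM in GRKO tumors, and none of them was at the floor in all 10. Their median log2 fold change was -1.08, all 5 lay below 0, and the most abundant was *Tpsb2*. The tryptase *Tpsb2* was at 130.01 ± 52.7 CPM in parental and 53.04 ± 13.8 CPM in GRKO tumors (log2 fold change -1.29, SE 0.26, adjusted p = 0.0194) and the chymase *Mcpt4* at 55.6 ± 13.7 CPM in parental and 21.4 ± 5.78 CPM in GRKO tumors (log2 fold change -1.38, SE 0.24, adjusted p = 0.00517). *Tpsb2* lost its call without parental tumor 2 or 4 or GRKO tumor 1, 3 or 5 (highest adjusted p 0.0747).

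The 6 adipocyte genes summed to 143 ± 16.8 CPM in parental and 71.9 ± 10.1 CPM in GRKO tumors (SD, n = 5 each), with a median of -1.06. In control tumors the adipocyte sums overlapped, at 163 ± 25.4 CPM in parental and 147 ± 60.9 CPM in GRKO tumors. *Cfd*, the complement factor adipsin and the most abundant of them, had 97.6, 94.9, 106, 132 and 92.3 CPM in parental GC tumors 1 to 5 and 50.9, 51.1, 45.6, 50.8 and 37.1 CPM in GRKO GC tumors 1 to 5. Its groups did not overlap (log2 fold change -1.15, SE 0.21, adjusted p = 0.00651). The 6 pericyte and smooth-muscle genes summed to 722 ± 106 CPM and 1213 ± 224 CPM, higher in all GRKO tumors, with a median of 0.58 and 0 calls by edgeR. At an unadjusted p under 0.05, 3 were higher and 0 lower, and DESeq2 called 2. In control tumors the sums of this list were also separate, at 749 ± 146 CPM in parental and 1203 ± 164 CPM in GRKO tumors (SD, n = 5 each). There 2 of its genes were called higher. *Acta2*, smooth-muscle actin, led this list. The same genes summed to 3816 to 5062 CPM as group means in the cultures, which hold no host cells, and 4 of the 6 were tested there. The part of host cells in the difference of this list was not tested.

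The other marker sums overlapped between the groups. Monocyte and macrophage genes summed to 7028 ± 2101 CPM and 6304 ± 1407 CPM, keratinocyte genes to 3374 ± 539 CPM and 3204 ± 638 CPM, and fibroblast genes to 1064 ± 140.4 CPM and 812 ± 95.1 CPM. At an unadjusted p under 0.05, 2 of 12 monocyte and macrophage genes were higher and 2 lower. By the same measure 2 of 13 keratinocyte genes were higher and 4 lower, and 0 of 8 fibroblast genes higher and 3 lower. DESeq2 called 2 keratinocyte genes and 1 fibroblast gene lower, and edgeR called 0. T cell genes summed to 97.7 ± 29.6 CPM and 78.0 ± 19.4 CPM, with *Trac* at the floor in all 10. CD8 and cytotoxic genes came to 134 ± 41.8 CPM and 128 ± 30.6 CPM, and CD4 and regulatory T cell genes to 103 ± 26.8 CPM and 81.0 ± 22.2 CPM.

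Neutrophil genes summed to 193 ± 80.4 CPM and 259 ± 110.1 CPM, with *Ly6g* at the floor and *Mmp9* the most abundant at 145 CPM. EdgeR called 0 of the 8 tested, 3 were higher and 1 lower at an unadjusted p under 0.05, and DESeq2 called 1 higher. *S100a8* and *Retnlg* had separate groups, higher in GRKO tumors. Dendritic cell genes summed to 97.6 ± 33.8 CPM and 78.3 ± 11.8 CPM. The 5 NK cell genes summed to 8.57 ± 3.23 CPM and 17.2 ± 4.43 CPM, with a median of 1.00. All 5 lay above 0, 3 were higher and 0 lower at an unadjusted p under 0.05, and edgeR and DESeq2 called 0. Striated-muscle genes came to 547 ± 152 CPM and 413 ± 73.1 CPM, with 11 of 12 below 0, a median of -0.84 and 3 called lower by DESeq2. Among them *Tnnc2*, a troponin of fast muscle, was called lower (log2 fold change -1.06, SE 0.23, adjusted p = 0.0256). *Tnnc2* lost its call without parental tumor 4 or GRKO tumor 1, 2, 3, 4 or 5 (highest adjusted p 0.0995) and with library size as the scaling or with the 10 GC tumors fitted alone. B and plasma cell genes, with *Cd79a* and *Pax5* at the floor, came to 9.71 ± 4.13 CPM and 6.90 ± 3.15 CPM, red blood cell genes to 72.8 ± 11.2 CPM and 61.1 ± 22.1 CPM, and Schwann cell genes to 17.2 ± 4.69 CPM and 12.9 ± 2.91 CPM.

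**Figure D3:**
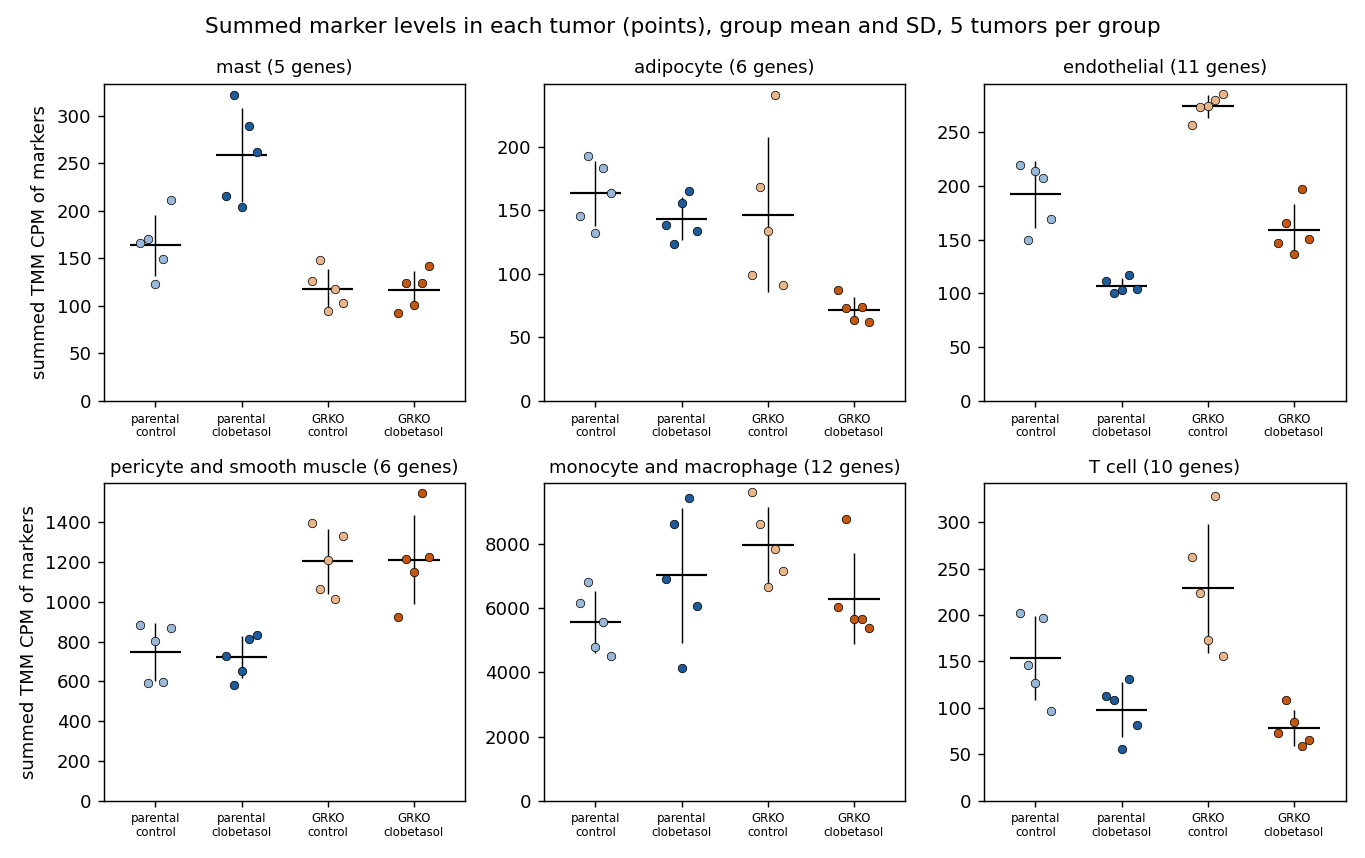
Summed CPM of marker lists in each tumor plotted (points), with the mean and SD of each group of 5. The values that follow are those of the GC-treated tumors, 5 parental and 5 GRKO. Under clobetasol, mast cell and adipocyte sums are lower in GRKO tumors (means 117 against 258 CPM and 71.9 against 143 CPM). Endothelial and pericyte sums are higher in them (159 against 107 CPM and 1213 against 722 CPM), and monocyte and T cell sums overlap.

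The same genotypes were also compared without the drug. Between the control tumors 358 genes were called (2.25% of 15919), 201 higher and 157 lower in GRKO tumors. This comparison shares no library with that of the GC tumors. Of the 70 genes lower under the drug, 21 were also lower in control tumors, 30% of the 70 and 13.4% of the 157. Of the 31 higher genes 5 were also higher, 16.1% of the 31 and 2.49% of the 201: *Pydc3*, *Lamb3*, *Oasl2*, *Gm11033* and *Gfra2*. None of the 101 was called in the opposite direction by edgeR on all tumors, and 1 was without GRKO control tumor 5. DESeq2 on all tumors called 3 of the 101 in the opposite direction, and 8 of the 31 and 22 of the 70 in the same. With 1 control tumor left out, 2 to 7 of the 31 and 13 to 24 of the 70 were called in the same direction. With the genes expected at equal depth as a covariate, 3 of the 31 and 15 of the 70 were.

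The GRKO control tumors were of 2 kinds. Tumors 1, 2, 3 and 5 had TMM factors of 0.753 to 0.919, 13399 to 15142 genes expected at equal depth, 0.587 to 0.976% mitochondrial reads and 6.57 to 16.3% of reads on the gene *Gm26924*. Tumor 4 had a TMM factor of 1.10, 16780 genes and 1.15% mitochondrial reads, and parental control tumors had 16178 ± 529.9 genes and 1.60 ± 0.498% (SD, n = 5). With the genes expected at equal depth as a covariate, edgeR called 51 genes between the control tumors in place of 358 and 15 in the interaction in place of 31, and the part of mitochondrial reads and *Gm26924* was not tested. Without tumor 4, 1762 genes were called between the control tumors, 868 higher and 894 lower, with 7 of the 31 and 24 of the 70 called in the same direction and 3 of the 101 in the opposite. Leaving out any other control tumor gave fewer calls, from 61 to 213, with 161, 88, 63, 73 and 201 without parental tumors 1 to 5 and 70, 61, 213 and 193 without GRKO tumors 1, 2, 3 and 5. DESeq2 called 1004.

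*Dio2* was lower in GRKO control tumors as well as under the drug, at 191 ± 33.2 CPM against 39.8 ± 16.4 CPM (log2 fold change -2.26, SE 0.27, adjusted p = 8.37e-05). *Adamts1* was lower there, at 90.5 ± 11.05 CPM against 24.0 ± 2.99 CPM (log2 fold change -1.92, SE 0.19, adjusted p = 8.2e-06). *Ccdc3* was at 44.9 ± 7.57 CPM against 8.54 ± 5.29 CPM (log2 fold change -2.38, SE 0.38, adjusted p = 0.00265). These 3 calls held with each control tumor left out. *Nr3c1* was lower in GRKO control tumors (log2 fold change -1.02, SE 0.24, adjusted p = 0.0313), a call lost with the depth covariate or without any 1 of the control tumors except GRKO 3 and 4 (adjusted p up to 0.356).

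Whether a genotype difference itself differed between treatments was tested as an interaction. EdgeR called 31 genes (0.195% of 15919), 11 with a higher and 20 with a lower genotype log2 fold change under the drug. They included *Irs1*, *Gadd45a*, *Klf10*, *Hes1* and *Gfra1* of the genes higher in GRKO GC tumors and *Ccdc3*, *Tnnc2*, *M1ap*, *Mt1* and *Gadd45g* of the lower ones. *Irs1*, *M1ap* and *Gadd45g* were named after their values were seen. For *Mt1* the control tumors were at 713 ± 63.9 CPM against 1049 ± 262 CPM, and the genotype difference was lower by 1.90 under the drug (interaction -1.90, SE 0.32, adjusted p = 0.0223). That call was lost without GRKO control tumor 2, GRKO GC tumor 5, parental control tumor 3 or parental GC tumor 4 (adjusted p up to 0.0746).

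*Gadd45a* had the smallest interaction p of the named genes (3.20, SE 0.52, adjusted p = 0.0168), with control tumors at 30.3 ± 16.8 CPM against 12.4 ± 2.62 CPM. It was lost without GRKO control tumor 2 or parental control tumor 3 (adjusted p up to 0.0594). *Tnnc2* had -1.89 (adjusted p = 0.0223), lost without those 2 tumors or without GRKO GC tumor 5 (adjusted p up to 0.0808). *Hes1* (3.34, adjusted p = 0.0330), *Klf10* (1.98, adjusted p = 0.0330), *Ccdc3* (-2.57, adjusted p = 0.0375) and *Gfra1* (1.73, adjusted p = 0.0414) were past the threshold with all 20 tumors. Each was lost without any 1 of GRKO control tumor 2, GRKO GC tumors 1, 3 or 5, parental control tumors 3 or 5 or parental GC tumors 2, 4 or 5. *Hes1* was also lost without GRKO control tumor 1 or parental control tumor 4, *Klf10* without GRKO control tumor 1 or parental control tumor 1 and with the depth covariate, and *Ccdc3* without GRKO GC tumor 4 or parental control tumors 1 or 4. *Gfra1* was also lost without GRKO control tumors 1 or 5, parental control tumors 1, 2 or 4, parental GC tumor 1, or with the depth covariate. Their highest adjusted p were 0.0882, 0.0886, 0.0954 and 0.127.

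*Lrrc32* did not pass this test. Its control tumors were at 60.9 ± 13.8 CPM when parental and 62.8 ± 20.1 CPM when GRKO (log2 fold change 0.05, SE 0.25, adjusted p = 0.942), and the interaction was 1.45 (SE 0.36, adjusted p = 0.0820). Without GRKO control tumor 4 the interaction was 1.42 with an adjusted p of 0.0309. The count of interaction genes rested on single tumors. Without GRKO control tumor 4 it was 1284. Without GRKO control tumor 2 or parental control tumor 3 edgeR called 0, with 2624 and 2643 genes at an unadjusted p under 0.05, and DESeq2 on all tumors called 817. It was 6 without GRKO control tumor 1, 9, 10 and 8 without parental control tumors 1, 4 and 5, and 4, 73, 3 and 5 without parental GC tumors 2, 3, 4 and 5. Without GRKO GC tumors 1, 2, 3 and 5 it was 6, 67, 4 and 2.

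**Figure D4:**
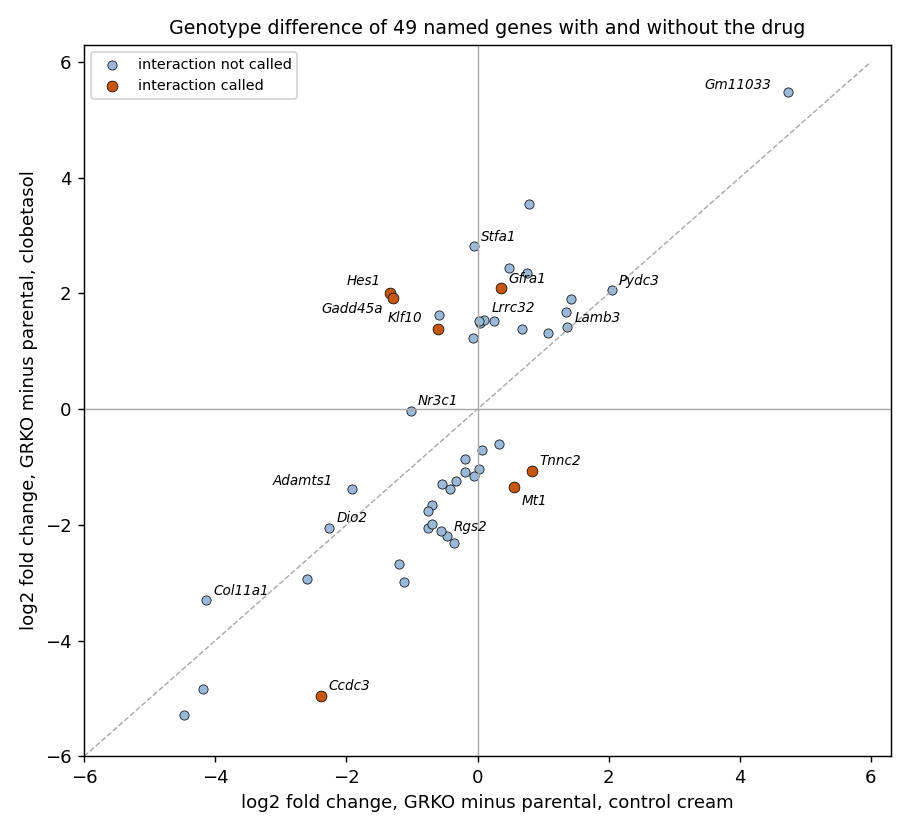
Genotype log2 fold change of 49 named genes in control tumors (x axis) and in clobetasol-treated tumors (y axis), 5 against 5 in each, with the dashed line at equal values and genes called in the interaction test in orange. *Dio2* lies near the line (-2.26 and -2.05), while *Gadd45a*, *Hes1*, *Klf10* and *Gfra1* lie above it and *Ccdc3*, *Mt1* and *Tnnc2* below, and 2 genes with a control group at 0 counts are left out.

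Each genotype's response to the drug, which shares libraries with the comparisons above, is set beside them for single genes. Parental tumors had 124 genes called between GC and control (0.779% of 15919) and GRKO tumors 1022 (6.42%). The GRKO control libraries had 0.818 ± 0.238% mitochondrial reads and 14876 ± 1251 genes at equal depth, against 1.72 ± 0.225% and 16095 ± 692 in GRKO GC libraries (SD, n = 5 each), and the part of this in the count was not tested. The difference between these counts was not tested, and the genes that follow were named from the same GC libraries. *Rgs2* changed by 1.88 (SE 0.33, adjusted p = 0.00487) in parental tumors and had 0.16 (SE 0.32, adjusted p = 0.798) in GRKO tumors. *Lrrc32* fell by 1.48 on the log2 scale in parental tumors (SE 0.26, adjusted p = 0.00491), and its value in GRKO tumors was -0.03 (SE 0.25, adjusted p = 0.960). *Per1* rose in both, by 2.19 (SE 0.27, adjusted p = 0.000147) and 1.29 (SE 0.27, adjusted p = 0.00744). The difference between the genotypes' responses is the interaction, and with edgeR on all 20 tumors it did not pass for these genes: *Rgs2* had -1.72 (SE 0.46, adjusted p = 0.0843), *Per1* had -0.91 (SE 0.37, adjusted p = 0.179) and *Lrrc32* had 1.45 (SE 0.36, adjusted p = 0.0820). DESeq2 called *Rgs2* (-1.76, adjusted p = 0.00982) and *Lrrc32* (1.42, adjusted p = 0.0139), edgeR called both without GRKO control tumor 4 (adjusted p = 0.0447 and 0.0309), and the depth covariate called *Rgs2* (-2.12, adjusted p = 0.0153).

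The cultured lines give the same comparison without host cells. With clobetasol, GRKO cultures differed from parental ones in 695 of 12525 genes tested (5.55%), 221 higher and 474 lower. With DMSO they differed in 1030 (8.22%), 273 higher and 757 lower. The labels of these cultures conflict on the dose, and 3 stand against 2 with the drug. Leaving out parental GC culture 1 or 2 gave 322 or 332 genes and leaving out GRKO GC culture 2 gave 447. Without parental DMSO culture 1 or GRKO DMSO culture 1 or 2 the count with DMSO was 682, 647 or 594.

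Of the 70 genes lower in GRKO GC tumors, 54 were tested in culture. With clobetasol 32 of these 54 were lower in GRKO cells, 6.75% of the 474 lower among all 12525 genes tested, and *Timp3* and *Cadm1* were higher. With DMSO 34 of the 54 were lower, 4.49% of the 757 lower among all 12525, and *Mt2* was higher. *Rgs2* was at 97.3 ± 1.01 CPM (SD, n = 2) in parental and 4.63 ± 0.442 CPM (SD, n = 3) in GRKO cells with the drug (log2 fold change -4.39, SE 0.23, adjusted p = 9.41e-07). Without the drug, in DMSO, *Rgs2* was called lower too, as were *Ccdc3*, *Scara5*, *Cp*, *Cebpd* and *Deptor*. By contrast, *Mt1*, *Per1* and *Adamts1* were called lower with clobetasol and not with DMSO. The study's GC-stimulated list had a median of -2.73 with clobetasol, with 18 of 20 tested genes lower, and of -0.05 with DMSO, with 7 lower and 1 higher. The study chose that list by its response to the drug in these cultures and tumors, so its direction with clobetasol is not independent evidence.

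*Nr3c1* itself was lower in GRKO cells with clobetasol, at 36.5 ± 4.33 CPM (SD, n = 2) in parental and 18.8 ± 5.03 CPM (SD, n = 3) in GRKO cells (log2 fold change -0.95, SE 0.24, adjusted p = 0.0384). With DMSO it did not pass, at 32.9 ± 2.82 CPM and 20.7 ± 4.24 CPM (SD, n = 3 each; log2 fold change -0.67, SE 0.22, adjusted p = 0.0840). The values of single genes in culture were not recomputed with a culture left out.

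*Lrrc32* ran the other way in culture. It was at 5.38 ± 0.195 CPM (SD, n = 2) in parental and 1.59 ± 0.318 CPM (SD, n = 3) in GRKO cells with clobetasol (log2 fold change -1.76, SE 0.42, adjusted p = 0.0304), and at 19.0 ± 5.11 CPM and 2.51 ± 1.26 CPM with DMSO (SD, n = 3 each; log2 fold change -2.92, SE 0.39, adjusted p = 0.000788). In the GC tumors the GRKO group was the higher one. Of the 31 genes higher in GRKO GC tumors, 27 were tested in culture, and with clobetasol 4 were higher and 5 lower. Those 5 were *Lrrc32*, *Oasl1*, *Bst2*, *Gfra2* and *Rtp4*. The interferon-stimulated list had a median of -0.94 with clobetasol and -1.35 with DMSO, with 4 and 8 of 19 tested genes lower, against 1.21 in the GC tumors. In control tumors, without the drug, its median was 0.81 with 3 of 26 genes called higher, and the median of the interaction was 0.28.

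*Sema7a* was higher in GRKO cells with clobetasol, at 49.1 ± 9.56 CPM (SD, n = 3) against 21.7 ± 1.36 CPM (SD, n = 2; log2 fold change 1.18, SE 0.20, adjusted p = 0.00371), as in the GC tumors. *Gm11033* was higher in both culture conditions, at 6.54 ± 0.546 CPM against 0.401 ± 0.311 CPM with clobetasol. Of the collagens, 10 of 16 tested were lower with clobetasol and 11 with DMSO. Of the autosomes, chromosome 15 had the median farthest from 0 in both culture conditions and was picked after the values were seen. Its genes had a median of -0.28 with clobetasol and -0.34 with DMSO (475 tested, 47 and 84 lower, 3 and 3 higher), of -0.09 in GC tumors (613 tested, 2 lower and 1 higher) and of 0.03 in control tumors (10 lower and 12 higher).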

How the data were processed

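The series holds 20 mouse melanomas and 11 cultures sequenced from the 3′ ends of messenger RNA. The authors trimmed reads (Trim Galore 0.6.5), aligned them with STAR 2.6.1d and deposited the counts per gene used here. Genes that reached a CPM of 0.5 in 3 or more samples were tested with edgeR 4.0.16 on TMM-scaled counts, with R 4.3.3, in 1 fit of 20 tumors and 1 of 11 cultures. Called genes had a Benjamini-Hochberg adjusted p under 0.05 and a fold change of at least 1.5. The fit was tested on simulated data, and the outcome is not used here. Single genes also had exact permutation tests (252 divisions of 5 against 5). Named genes were *Nr3c1*, *Lrrc32*, in each direction the 15 called genes with the largest log2 fold change among those with separate groups and a mean of at least 1 CPM in the higher group, every called gene of a list, and members of the 2 GC lists with separate groups. Members and gene lists were chosen with earlier results of these data known. Alternatives were DESeq2 1.42.0, other scalings, filters, fold changes and blocks, and each library left out. Promoters and motifs came from RefSeq on GRCm38.p6. The interaction result of 1 further gene is not reported here.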

Additional observations from a re-analysis of the deposited data

Results flagged for a closer look

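In 12 of 162 groups of 5, 1 tumor stood far from the other 4, measured as its gap to the nearest tumor over the range of the group. Chance gives this in about 1 in 20 groups.

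In parental GC tumors, *Gm11033* was highest in tumor 1 (0.510 CPM against 0 to 0.133, gap 0.740), *Isg15* in tumor 1 (44.8 CPM against 6.39 to 11.01, gap 0.880) and *Scara5* in tumor 4 (28.6 CPM against 14.6 to 17.7, gap 0.777). In GRKO GC tumors, *H2afx* was highest in tumor 5 (87.5 CPM against 27.5 to 38.9, gap 0.810), *Lamb3* in tumor 3 (34.9 CPM against 16.9 to 21.8, gap 0.728) and *Ccdc68* in tumor 3 (0.225 CPM against 0 to 0.0446, gap 0.802). *Pld5* had 0.454 CPM in GRKO GC tumor 5 and 0 in the other 4 (gap 1).

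Among summed marker levels in GRKO GC tumors, NK cell genes were lowest in tumor 4 (9.53 CPM against 17.8 to 20.3, gap 0.773). B and plasma cell genes were highest in tumor 2 (12.4 CPM against 5.04 to 6.67, gap 0.778), as were monocyte and macrophage genes (8788 CPM against 5376 to 6025, gap 0.810). In parental control tumors, mitochondrial reads were highest in tumor 2 (2.47% against 1.25 to 1.46%, gap 0.827) and the share of the most abundant gene in tumor 1 (5.55% against 1.30 to 1.76%, gap 0.891).

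The genotype difference itself differed between clobetasol and control by edgeR's interaction test in 7 named genes: *Gfra1* (1.73, adjusted p = 0.0414), *Hes1* (3.34, adjusted p = 0.0330), *Gadd45a* (3.20, adjusted p = 0.0168), *Klf10* (1.98, adjusted p = 0.0330), *Ccdc3* (-2.57, adjusted p = 0.0375), *Mt1* (-1.90, adjusted p = 0.0223) and *Tnnc2* (-1.89, adjusted p = 0.0223), on the log2 scale. Each lost its call when GRKO control tumor 2 was left out, with adjusted p over all left-out tumors up to 0.127, 0.0882, 0.0594, 0.0886, 0.0954, 0.0746 and 0.0808.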

How the results depend on the processing

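Of the 47 named genes called in GC tumors, 18 kept the call with each GC tumor left out and 12 under all 11 other settings, 10 of them under both. The 37 list medians were recomputed only with DESeq2's size factors and with library size alone, and moved by less than the spread between replicates, but library size turned the medians of TGF-β ligands (-0.0046 to 0.020) and of B and plasma cell genes (-0.0032 to 0.050). The covariate for genes expected at equal depth and the fit without numbers 2 and 4 were chosen after the values were seen.

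Genes higher in GRKO GC tumors numbered 31, and 121 with DESeq2, 70 with the replicate block, 168 with the covariate and 7 without numbers 2 and 4. Leaving out 1 tumor gave 11 (without GRKO 5) to 42 (without parental 1), with 13, 16 and 17 without parental 2, 4 and 5 and 16 and 12 without GRKO 1 and 3. Genes lower numbered 70, and 168 with DESeq2, 194 with the covariate and 11 without numbers 2 and 4. Leaving out 1 tumor gave 29 (without GRKO 5) to 72 (without parental 1), with 34 and 38 without parental 2 and 4 and 36 and 34 without GRKO 1 and 3. The cause was not tested, and leaving out tumors also leaves fewer samples.

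The control tumors gave 358 genes, 1004 with DESeq2 and 51 with the covariate. Leaving out 1 tumor gave 61 (without GRKO control tumor 2) to 1762 (without GRKO control tumor 4), with 161, 88, 63, 73 and 201 without parental control tumors 1 to 5 and 70, 213 and 193 without GRKO control tumors 1, 3 and 5. The interaction gave 31 genes, 817 with DESeq2, 49 without the filter, 144 with the replicate block and 15 with the covariate. Leaving out 1 tumor gave 0 by edgeR (without parental control tumor 3 or GRKO control tumor 2, with 2643 and 2624 genes at an unadjusted p under 0.05) to 1284 (without GRKO control tumor 4). The cause was not tested.

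The cultures gave 695 genes with clobetasol (322 without parental culture 1 to 842 without GRKO culture 1, with 332 without parental culture 2 and 447 without GRKO culture 2) and 1030 with DMSO (594 without GRKO culture 2 to 916 without parental culture 3, with 682 and 647 without parental and GRKO culture 1). Leaving out 1 parental culture with clobetasol leaves a lone sample, which is assumed to vary like the other groups.

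*Nr3c1*, not called at -0.02, turned to 0.0084 with library size alone, 0.036 without numbers 2 and 4 and 0.055 with the covariate. Leaving out 1 GC tumor gave -0.17 to 0.14, above 0 without parental 1, 3 or 5 or GRKO 2 or 4. The cause was not tested.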
